A study of Mus musculus with 11 samples.

Results

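Astrocytes carry receptors and bridging molecules by which they recognise and take up dying cells, myelin and synapses. Out of 24421 entries measured in each sample, the 10 genes described here are engulfment genes of astrocytes. They were chosen by name, with earlier results of these data known. They comprise the receptors Adgrb1, Megf10, Mertk, Axl, Itgav and Itgb5, the bridging molecules Gas6, Pros1 and Mfge8, and the adaptor Gulp1. Adgrb1 was included because its level in the olfactory bulb (OB) was already known from these samples, so its OB values are given as a description and are not tested. The other 9 members were compared across 4 regions: the OB, the cortex (CX), the hippocampus (HC) and the brainstem (BS).

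As background, a cell to be engulfed exposes phosphatidylserine on its outer membrane. Adgrb1 and Megf10 take part in recognising it at the surface of the engulfing cell, whereas Mertk and Axl bind it through the soluble protein Gas6, and Mertk also through Pros1. The integrin of Itgav and Itgb5 binds it through Mfge8. Behind the receptors, Gulp1 is an adaptor of the Megf10 branch, and the Elmo and Dock proteins relay the Adgrb1 signal to the small GTPase Rac1. Mertk and Megf10 are known for the removal of synapses by astrocytes.

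RNA was sequenced from eGFP-positive cells sorted from Aldh1l1-eGFP mice, whose transgene marks astrocytes by the promoter of Aldh1l1. The mice were 16 weeks old, on a C57BL/6 background and of both sexes, and the labels name no treatment or deletion in any group. There were 3 OB, 3 HC, 2 CX and 3 BS samples. The labels do not say whether samples of a region came from separate animals or pools, so p-values measure the spread between these samples, which may be technical. Values are read counts divided by a size factor for each sample, called normalized values below, and are compared between genes only after division by exon length.

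The samples held between 2830746 and 14151670 reads on genes, and all 10 members passed the filter on low values. Astrocyte markers were abundant in all 11 samples, and their summed value was 258523 to 309829 in OB, 282909 to 484983 in HC, 577539 to 654267 in CX and 109530 to 318519 in BS. Other cell types were also represented, since 10 choroid plexus markers summed to 72353 to 146799 in HC and 52396 to 247366 in BS. The same markers summed to 1783 to 5061 in CX and to 222 to 310.3 in OB, where Folr1 and Slc4a5 were at 0. BS replicate 1 stood apart, with the lowest astrocyte marker sum and the highest choroid plexus sum. In bulk RNA, fewer cells of a type and less RNA per cell cannot be told apart. The part that other cells had in any result was not tested. Rn45s, a ribosomal RNA precursor, took 0.966 to 2.93% of reads in OB and HC and 18.0 to 25.6% in CX and BS. Comparisons of OB or HC with CX or BS therefore also differ in this share, and its part was not tested.

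Adgrb1 was the member with the highest level per length in OB, and by the same measure it ranked 9 of the 10 in HC, 8 in CX and 4 in BS. The gene, a large adhesion G protein-coupled receptor also called BAI1, lies at chr15:74516195-74589465 on the plus strand (GRCm38). Its normalized values were 8091, 6387 and 8838 in OB, against 532, 497 and 573 in HC, 819 and 952 in CX and 568, 1595 and 884 in BS. The OB samples therefore did not overlap with any other sample, as held for 4.93% of all genes tested in this direction, and the lowest of them was 4.01 times the highest of the other 8, BS replicate 2. The OB mean of 7772 ± 1256 (SD, n = 3) was 14.6 times that of the HC, 8.78 times that of the CX and 7.65 times that of the BS.

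The 3 regions outside the OB could be compared by test. Mean Adgrb1 values were 534 ± 38.2 (SD, n = 3) in HC, 886 ± 94.0 (SD, n = 2) in CX and 1015 ± 526 (SD, n = 3) in BS. On the log2(value + 1) scale the HC lay 0.80 below the BS (95% interval of HC minus BS -1.39 to -0.21), and the adjusted p of 0.136 missed the threshold of 0.05. HC and CX differed by -0.73 with an adjusted p of 0.343, and CX and BS by -0.07 with an adjusted p of 0.921. The HC to BS difference passed with DESeq2 (adjusted p 0.0264), with scaling to astrocyte markers (adjusted p 0.00613) and without BS replicate 1 (adjusted p 0.00805).

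Paralogues of Adgrb1 did not share its level. Adgrb2 and Adgrb3 encode the other members of this receptor family. Adgrb3 had means of 736, 767, 911 and 951 in OB, HC, CX and BS, and its adjusted p among the 4 regions was 0.869. Adgrb2 had means of 377, 276, 461 and 335 in the same order, with an adjusted p of 0.341. Per kilobase of exon, the ratio of Adgrb1 to Adgrb3 was 27.1 ± 3.86 (SD, n = 3) in OB and between 1.55 and 3.11 in the 8 other samples. The OB ratio rests on the values that chose Adgrb1 and is a description.

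Elmo2, an adaptor through which Adgrb1 is known to signal to Rac1, was also highest in OB. Single samples had normalized values of 1632, 1206 and 1725 in OB, 467, 543 and 528 in HC, 737 and 875 in CX and 688, 1214 and 882 in BS. All HC samples were below all others, whereas OB replicate 2 lay just below BS replicate 2. The OB exceeded the HC by 1.55 ± 0.21 (SE) on the log2 scale (adjusted p 2.40e-04), the CX by 0.90 (adjusted p 0.0368) and the BS by 0.73 (adjusted p 0.0264). The related Elmo1 and Elmo3 were not highest in OB. Elmo1 had means of 181, 235, 166 and 257 in OB, HC, CX and BS and did not pass among the 4 regions. Elmo3 had its lowest mean, 9.33, in OB. Dock1, which acts together with Elmo proteins, had means of 1075, 1246, 1557 and 970 in OB, HC, CX and BS and missed the threshold among the 4 regions (adjusted p 0.0702). Rac1 itself had means between 6017 and 6192 in the 4 regions.

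**Figure D1:**
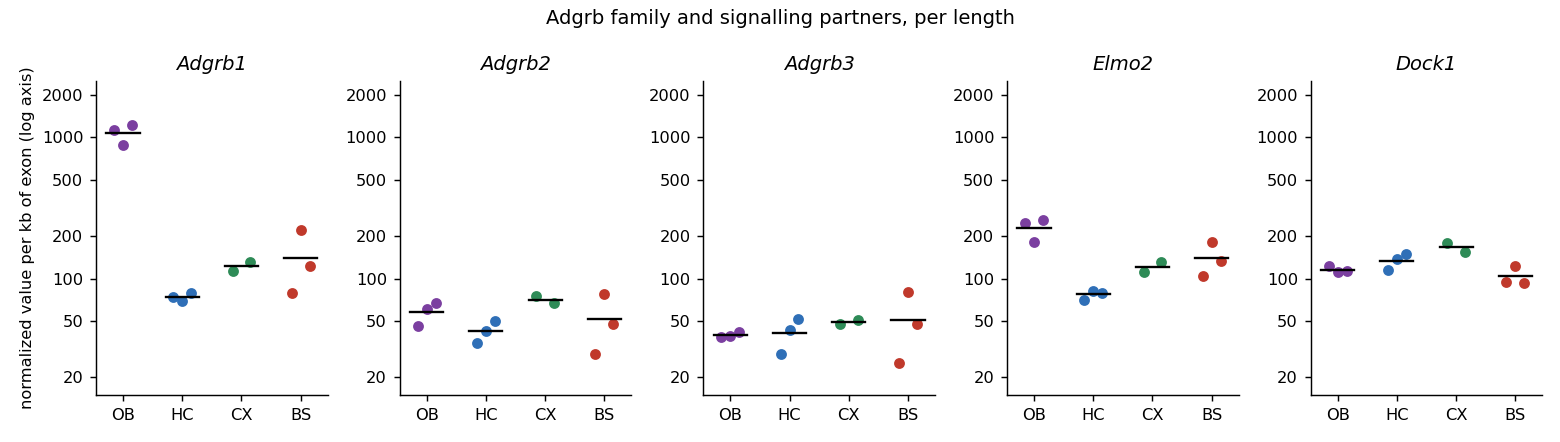
Normalized value per kilobase of exon (log axis) of Adgrb1, its paralogues Adgrb2 and Adgrb3, and its signalling partners Elmo2 and Dock1; points are samples, bars are means, and all panels share 1 axis (OB, HC and BS, n = 3; CX, n = 2). The OB samples stand apart for Adgrb1, at a mean of 1076 per kilobase. For Adgrb2 and Adgrb3, no region lies wholly above or wholly below all others.

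Genes with the pattern most like that of Adgrb1 were named by the Pearson correlation of log2 values over the 11 samples, as a description. The first 5 were Snx18, with r = 0.989, Mthfsl, with r = 0.977, Hs3st3b1, with r = 0.967, Fat4, with r = 0.963, and Kcnd3, with r = 0.961. Each of them was high in all 3 OB samples, so these coefficients mostly describe 1 step between the OB and the rest. Snx18, a sorting nexin, had mean values of 1314, 337, 433 and 414 in OB, HC, CX and BS. Kcnd3, a potassium channel subunit, had means of 1072, 161, 163 and 203. In all, 12 of 13871 genes had an r over 0.95. Olfactory ensheathing glia markers moved in the same way, with 6 of 7 above all other samples in OB (background 4.93%) and a summed value of 2199 to 2709 there, against 301 to 789 in the other samples. Neuroblast markers (4 of 6) and olfactory sensory neuron markers (4 of 7) were also above all others in OB. Their part in the Adgrb1 level was not tested.

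**Figure D2:**
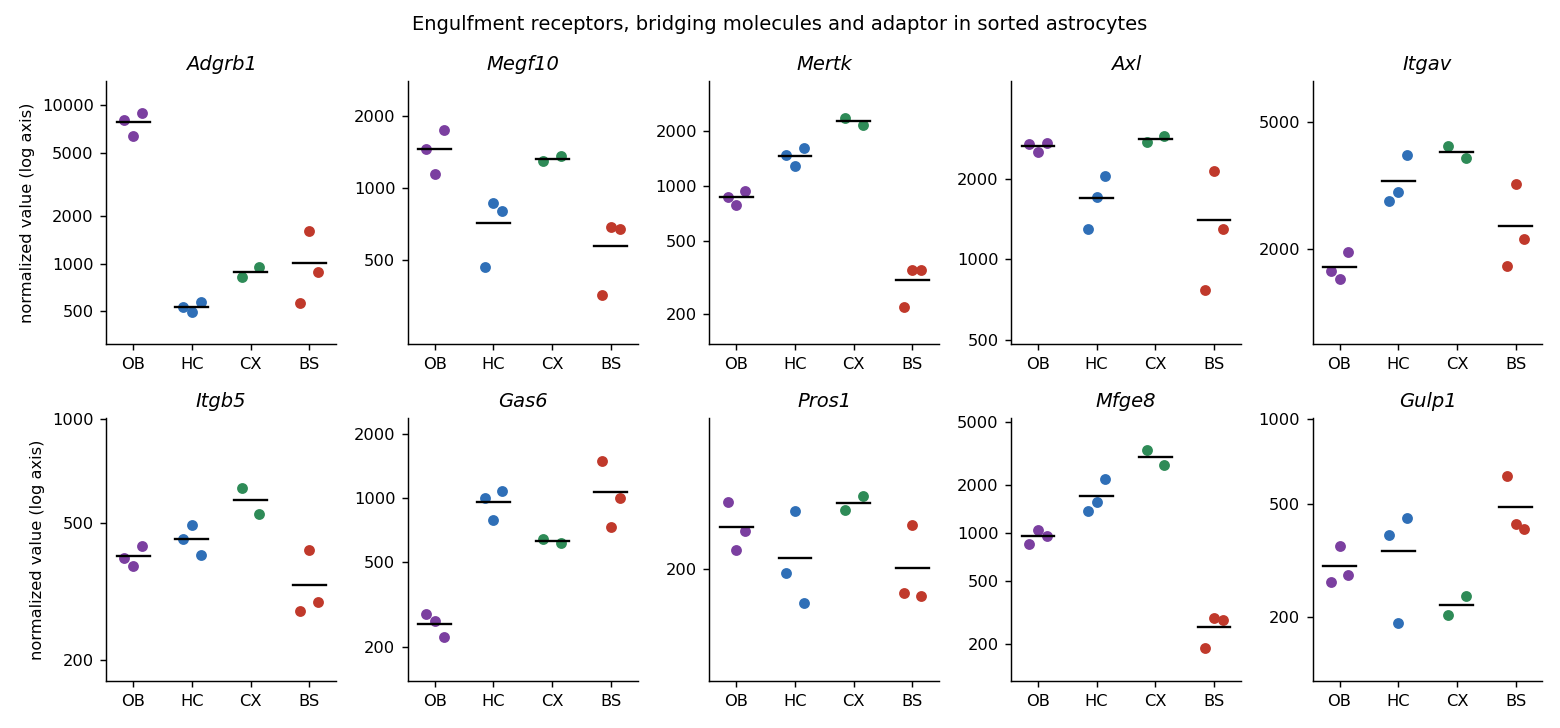
Normalized values (log axes, a separate range for each panel) of the 10 members in each sample; points are samples and bars are region means (OB, HC and BS, n = 3; CX, n = 2). Adgrb1 stands out in OB, Mertk and Mfge8 fall to their lowest values in BS, and Gas6 is lowest in OB.

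Across the remaining members, 6 of 9 differed among the 4 regions by limma's F test (adjusted p under 0.05), where 16.5% of all genes tested did. They were Mertk, Mfge8, Gas6, Megf10, Itgav and Axl. Itgb5 (adjusted p 0.0555), Gulp1 (0.0948) and Pros1 (0.346) did not pass. Over the 6 pairs of regions, 23 of 54 tests of members passed, against 7.29% of all such tests, and 10 of these 23 belonged to Mertk and Mfge8. The members were chosen with earlier results of these data known, so these counts and those below are a description beside the shares of all genes. Without the mean-variance trend in limma, 3 of 9 members passed the F test and 11 of the 54 pair tests passed. The shares of all genes without the trend were not computed.

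Mertk, a receptor kinase of the TAM family (Tyro3, Axl and Mertk) known from the uptake of photoreceptor tips and synapses, was highest in CX and lowest in BS. The gene lies at chr2:128698956-128802894 on the plus strand. Its normalized values were 2342 and 2166 in CX, 1474, 1282 and 1618 in HC, 873, 794 and 937 in OB and 220, 351 and 347 in BS. The 4 regions did not overlap at any point of this order, and the share of all genes separated in this way was not computed. The CX exceeded the BS by 2.91 ± 0.21 (SE) on the log2 scale (adjusted p 6.51e-07), which was a ratio of means of 7.37. The HC exceeded the BS by 2.28 (adjusted p 2.90e-06), and the OB exceeded the BS by 1.53 (adjusted p 6.16e-05). Between OB and CX the difference was -1.38 (adjusted p 0.00124), and between OB and HC it was -0.74 (adjusted p 0.0249). The OB to HC call was lost when any 1 of 5 samples was left out (adjusted p up to 0.108), and with values scaled to astrocyte markers (0.0538). HC and CX did not pass, at -0.63 (adjusted p 0.210, 95% interval -1.09 to -0.18).

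Mfge8, a secreted bridging protein with an integrin-binding motif, followed the same order of regions as Mertk. The gene lies at chr7:79133768-79149060 on the minus strand. Sample by sample, the normalized values were 3336 and 2672 in CX, 1382, 1570 and 2194 in HC, 850.3, 1051 and 966 in OB and 188, 292 and 286 in BS. As with Mertk, no sample of a region overlapped with a neighbouring region, again without a share over all genes to compare. The CX exceeded the BS by 3.57 ± 0.24 (SE) on the log2 scale (adjusted p 2.98e-07), a ratio of means of 11.8. The HC exceeded the BS by 2.74 (adjusted p 1.25e-06) and the OB exceeded it by 1.92 (adjusted p 2.21e-05). The OB was below the CX by 1.65, a difference of OB minus CX of -1.65 (adjusted p 7.38e-04). The OB minus HC difference was -0.82 (adjusted p 0.0271) and was lost when any 1 of 5 samples was left out (adjusted p up to 0.128). HC minus CX was -0.83, with an adjusted p of 0.122 by limma and 0.0455 by DESeq2.

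Astrocyte marker sums reached their lowest values in BS, so the BS differences of Mertk and Mfge8 were computed again with each sample shifted by its astrocyte markers. The shift was -0.92 in BS replicate 1, -0.36 in BS replicate 3 and 0.19 in BS replicate 2 on the log2 scale, and 0.34 and 0.28 in CX samples. Of the 10 astrocyte markers, 2 (Gfap and Slc1a3) themselves differed among the 4 regions by the F test. Slc1a3 was 1953 to 6315 in BS and 14218 to 33551 in the other samples. The shift is therefore not a measure of astrocyte content alone. After the shift, CX minus BS was 2.24 for Mertk (adjusted p 8.32e-05) and 2.90 for Mfge8 (adjusted p 3.15e-06). OB minus BS was 1.02 for Mertk (adjusted p 0.0121) and 1.41 for Mfge8 (adjusted p 7.50e-04). Oligodendrocyte markers moved the other way, with a sum of 52520 to 90153 in BS against 9681 to 16140 in OB, and their part was not tested.

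Gas6, the ligand of both Mertk and Axl, had the opposite extreme, with its lowest values in OB. The gene lies at chr8:13465374-13494490 on the minus strand. Its normalized values were 286, 266 and 222 in OB, 645 and 615 in CX, 1004, 792 and 1076 in HC and 1490, 733 and 998 in BS. All OB samples were below all other samples, while HC and BS overlapped. The OB minus BS difference was -2.00 ± 0.23 (SE, adjusted p 2.71e-05) on the log2 scale and the OB minus HC difference was -1.88 (adjusted p 8.74e-05). Against the CX it was -1.29 (adjusted p 0.00710), and this call was lost without either CX sample (adjusted p up to 0.102) and with scaling to astrocyte markers (0.306). HC and BS could not be separated, at -0.12 (adjusted p 0.874, 95% interval -0.60 to 0.37). Gas6 overlaps Tmem255b on the opposite strand, and since the strand used in counting is not given in the sources used here, reads of these genes cannot be told apart where they overlap. The same holds for antisense entries within Mertk, Itgav and Gulp1.

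Choroid plexus markers moved with Gas6. Of 10 such markers, 9 were below all other samples in OB (background 3.24%), and the order of their sums, OB below CX and both below HC and BS, was also that of Gas6. Within BS, replicate 1 had the highest sum (247366) and the highest Gas6 value (1490), and replicate 2 the lowest sum (52396) and the lowest Gas6 value (733). Within HC, replicate 2 had the lowest of both, at 72353 and 792, but replicate 1 had the highest sum (146799) and replicate 3 the highest Gas6 value (1076). Within CX, replicate 1 was the higher in both. Within OB, replicate 3 had the highest sum (310.3) and the lowest Gas6 value (222). The ranges of the marker sums in HC and BS overlapped, and Mertk and Mfge8 were lower in every BS sample than in every HC sample. The part of choroid plexus RNA in the levels of Gas6, Mertk and Mfge8 was not tested.

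**Figure D3:**
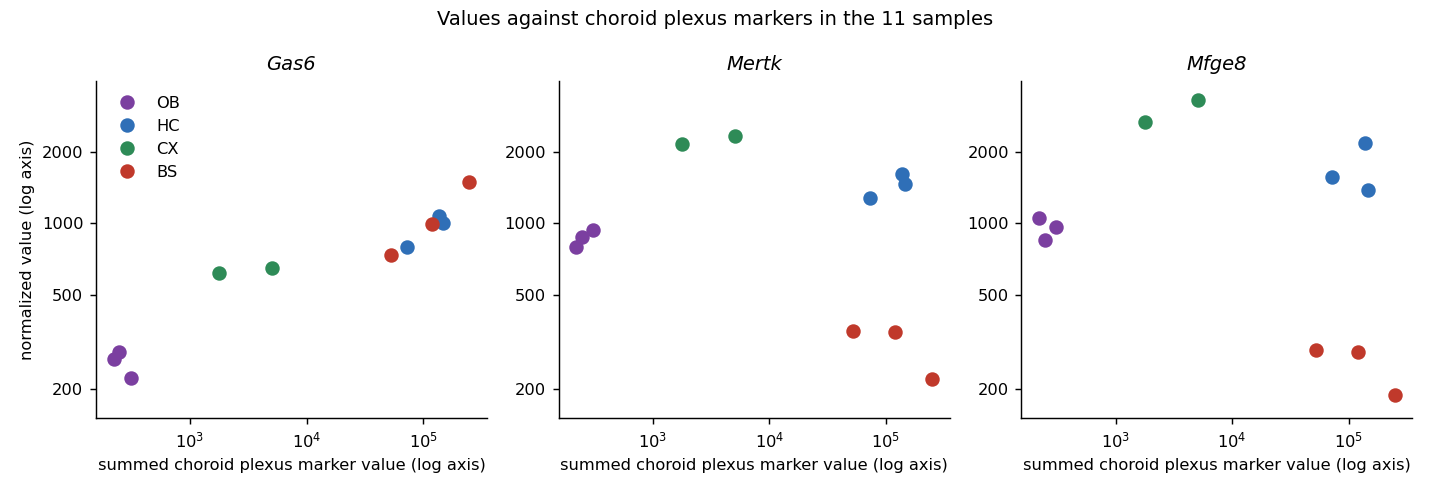
Normalized value of Gas6, Mertk and Mfge8 (log axis) against the summed value of 10 choroid plexus markers (log axis); each point is 1 of the 11 samples, coloured by region. Gas6 is lowest in the 3 OB samples, whose marker sums are 222 to 310.3, and highest in BS replicate 1, whose sum is 247366. Mertk and Mfge8 are lower in every BS sample than in every HC sample, with sums of 52396 to 247366 in BS and 72353 to 146799 in HC.

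Because Mertk, Mfge8 and Gas6 carried the clearest differences between regions, the 250 bases before their RefSeq start sites are shown (GRCm38.p6). Of the 10 members, 8 had an entry in the RefSeq promoter table, and Adgrb1 and Megf10 had none. Capitals mark the GC box, GGGCGG on either strand, which is known as a binding sequence of Sp factors. The Mertk sequence is chr2:128698665-128698914 on the plus strand, the Mfge8 sequence chr7:79149061-79149310 on the minus strand and the Gas6 sequence chr8:13494536-13494785 on the minus strand.
Mertk: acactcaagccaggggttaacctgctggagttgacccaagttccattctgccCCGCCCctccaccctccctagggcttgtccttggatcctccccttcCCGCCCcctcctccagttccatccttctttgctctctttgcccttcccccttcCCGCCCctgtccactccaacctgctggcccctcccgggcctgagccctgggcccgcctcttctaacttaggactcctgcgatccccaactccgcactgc
Mfge8: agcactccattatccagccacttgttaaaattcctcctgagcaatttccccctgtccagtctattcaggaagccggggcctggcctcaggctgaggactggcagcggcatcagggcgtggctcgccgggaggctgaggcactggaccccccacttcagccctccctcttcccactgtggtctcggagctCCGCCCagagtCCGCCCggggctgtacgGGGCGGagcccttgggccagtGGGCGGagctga
Gas6: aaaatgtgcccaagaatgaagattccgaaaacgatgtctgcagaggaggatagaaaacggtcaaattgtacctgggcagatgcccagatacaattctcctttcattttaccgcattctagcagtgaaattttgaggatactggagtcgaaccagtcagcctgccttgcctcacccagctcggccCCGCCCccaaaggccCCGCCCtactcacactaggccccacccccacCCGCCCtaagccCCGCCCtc
The Mertk sequence held 3 GC boxes, and those of Mfge8 and Gas6 held 4 each. In all, 7 of the 8 member promoters held at least 1, Itgav being without, against 32.7% of 32851 promoters of the same length. The NFI half-site TTGGC was present in 1 of 8, that of Itgb5, against 41.5% of all promoters. The GC content of the 8 member promoters was 54.8 to 65.2%, all above the median of 52.4% over all promoters, and its part in these shares was not tested. These are matches of letters only.

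Megf10, a receptor with many EGF-like repeats, had high values in OB and CX. Single samples had normalized values of 1455, 1149 and 1751 in OB, 1300.3 and 1355 in CX, 467, 868 and 799 in HC and 355, 689 and 671 in BS. OB and CX samples overlapped each other and lay above all HC and BS samples. The OB exceeded the BS by 1.38 ± 0.27 (SE) on the log2 scale (adjusted p 0.00280) and the HC by 1.06 (adjusted p 0.0263), and the CX exceeded the BS by 1.28 (adjusted p 0.0141). OB and CX could not be separated, at 0.11 (adjusted p 0.919, 95% interval -0.54 to 0.76). The OB to HC call was lost without OB replicate 1, OB replicate 3 or HC replicate 1 (adjusted p up to 0.132), and the CX to BS call without either CX sample (up to 0.101) and with scaling to astrocyte markers (0.126).

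Axl, the other TAM receptor kinase among the members, also had its higher values in OB and CX. Its normalized values were 2685, 2518 and 2722 in OB, 2736 and 2896 in CX, 1304, 1712 and 2051 in HC and 772, 2132 and 1294 in BS. The spread within BS was wide, and BS replicate 2 exceeded every HC sample. The OB exceeded the BS by 1.04 ± 0.28 (SE) on the log2 scale (adjusted p 0.0196) and the CX exceeded it by 1.13 (adjusted p 0.0298). In edgeR the CX to BS call was lost (adjusted p 0.0646). The OB to BS call was lost when any 1 of 5 samples was left out (adjusted p up to 0.0707) and the CX to BS call when any 1 of 4 was (up to 0.164), and with scaling to astrocyte markers the differences were 0.53 (adjusted p 0.0652) and 0.46 (0.142). Axl was the least stable of the 6 members called among the 4 regions, since its adjusted p of 0.0306 rose above 0.05 when any 1 of 7 samples was left out (up to 0.0847), in edgeR (0.0697) and with scaling to astrocyte markers (0.0893).

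The balance between the TAM receptors differed between regions. Per kilobase of exon, the ratio of Mertk to Axl was 0.381 ± 0.0170 (SD, n = 3) in OB and 0.278 ± 0.0757 (SD, n = 3) in BS. It was 1.03 ± 0.243 (SD, n = 3) in HC and 0.931 ± 0.0885 (SD, n = 2) in CX. The highest OB or BS ratio, 0.399, was thus below the lowest HC or CX ratio, 0.868. Tyro3, the remaining kinase of this family, had mean values between 65.0 and 89.6, and per kilobase Mertk was 4.21 to 38.9 times its level over the samples.

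Pros1, a ligand of Mertk known also as an anticoagulant, gave no call in any of the 6 pairs. Sample by sample, the normalized values were 299.7, 224 and 251 in OB, 195, 283 and 163 in HC, 285 and 311 in CX and 174, 260.4 and 170.5 in BS. Both CX samples lay above all HC and BS samples and overlapped with OB, and the OB, HC and BS samples overlapped one another. The largest difference, CX minus BS, was 0.59 on the log2 scale (adjusted p 0.197, 95% interval 0.01 to 1.17). Per kilobase, Gas6 exceeded Pros1 in every sample. The ratio was 1.62 ± 0.253 (SD, n = 3) in OB, 3.17 and 3.63 in the 2 samples of CX, 7.78 ± 3.07 (SD, n = 3) in HC and 9.23 ± 4.63 (SD, n = 3) in BS. The OB ratios, at most 1.90, lay under the lowest ratio of the other regions, 3.17.

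Itgav, the alpha chain of the integrin, had normalized values of 1707, 1611 and 1952 in OB, 2825, 3025 and 3933 in HC, 4192 and 3852 in CX and 1769, 3185 and 2143 in BS. Its OB values were below all HC and CX values and overlapped with BS replicate 1. OB minus CX was -1.20 ± 0.24 (SE) on the log2 scale (adjusted p 0.00747) and OB minus HC was -0.88 (adjusted p 0.0170). The former call was lost without either CX sample (adjusted p up to 0.119), and the latter when any 1 of 3 samples was left out (up to 0.0841). CX minus BS was 0.81 (adjusted p 0.0404), a call lost when any 1 of 8 samples was left out and, at 0.14, with scaling to astrocyte markers (adjusted p 0.647). This call was also lost in edgeR (adjusted p 0.0729) and in limma without the filter on low values (0.0617).

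Itgb5, the beta chain, had normalized values of 395, 376 and 428 in OB, 448, 492 and 402 in HC, 631 and 532 in CX and 279, 417 and 295 in BS. Both CX samples were above all others. CX minus BS, 0.83 ± 0.21 (SE) on the log2 scale (adjusted p 0.0188), was its single called pair. It was lost when any 1 of 4 samples was left out (adjusted p up to 0.204), and with scaling to astrocyte markers it was 0.16 (adjusted p 0.731). Per kilobase, the ratio of Itgav to Itgb5 was 1.45 ± 0.0490 (SD, n = 3) in OB and at least 2.03 in every other sample. Itgb8, an alternative partner of Itgav, had mean values of 2424 in OB, 1575 in HC, 1727 in CX and 2276 in BS. It missed the threshold among regions but passed limma's F test with scaling to astrocyte markers (adjusted p 0.00530).

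Gulp1, the adaptor, had its highest mean in BS. Its normalized values were 266, 356 and 282 in OB, 390.4, 190.0 and 446 in HC, 204 and 238 in CX and 631, 425 and 408 in BS. HC replicate 2 was the lowest of all samples and HC replicate 3 exceeded BS replicates 2 and 3, so HC and BS overlapped. CX minus BS was -1.12 ± 0.32 (SE) on the log2 scale (adjusted p 0.0346), its single called pair, which was lost when any 1 of 4 samples was left out (up to 0.236).

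Between CX and BS, 7 of 9 members passed (background 10.9%), with Mfge8, Mertk, Megf10, Axl, Itgb5 and Itgav higher in CX and Gulp1 higher in BS. The calls of Axl and Itgav were lost in edgeR (adjusted p 0.0646 and 0.0729). Those of Itgav and Gulp1 were lost in limma without the filter on low values (adjusted p 0.0617 and 0.0510). With scaling to astrocyte markers 3 of 9 passed, namely Mertk, Mfge8 and Gulp1, and 2 passed without the trend or when either CX sample was left out. OB and BS differed in 5 (background 14.9%), with Axl, Megf10, Mertk and Mfge8 higher in OB and Gas6 lower. OB and HC differed in 5 (background 7.12%), with Megf10 higher in OB and Gas6, Itgav, Mertk and Mfge8 lower. The last 4 were also lower in OB than in CX (background 4.91%, and 2.08% lower in OB). HC and BS differed in Mertk and Mfge8 alone, both higher in HC (background 4.64%, and 2.69% higher in HC). HC and CX differed in none by limma (background 1.23%), where 5 had an unadjusted p under 0.05 with limma, edgeR and DESeq2, and DESeq2 called Mfge8. These pairs share samples, so their counts are not independent. The background shares are those of the main fit and were not computed for the alternatives.

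**Figure D4:**
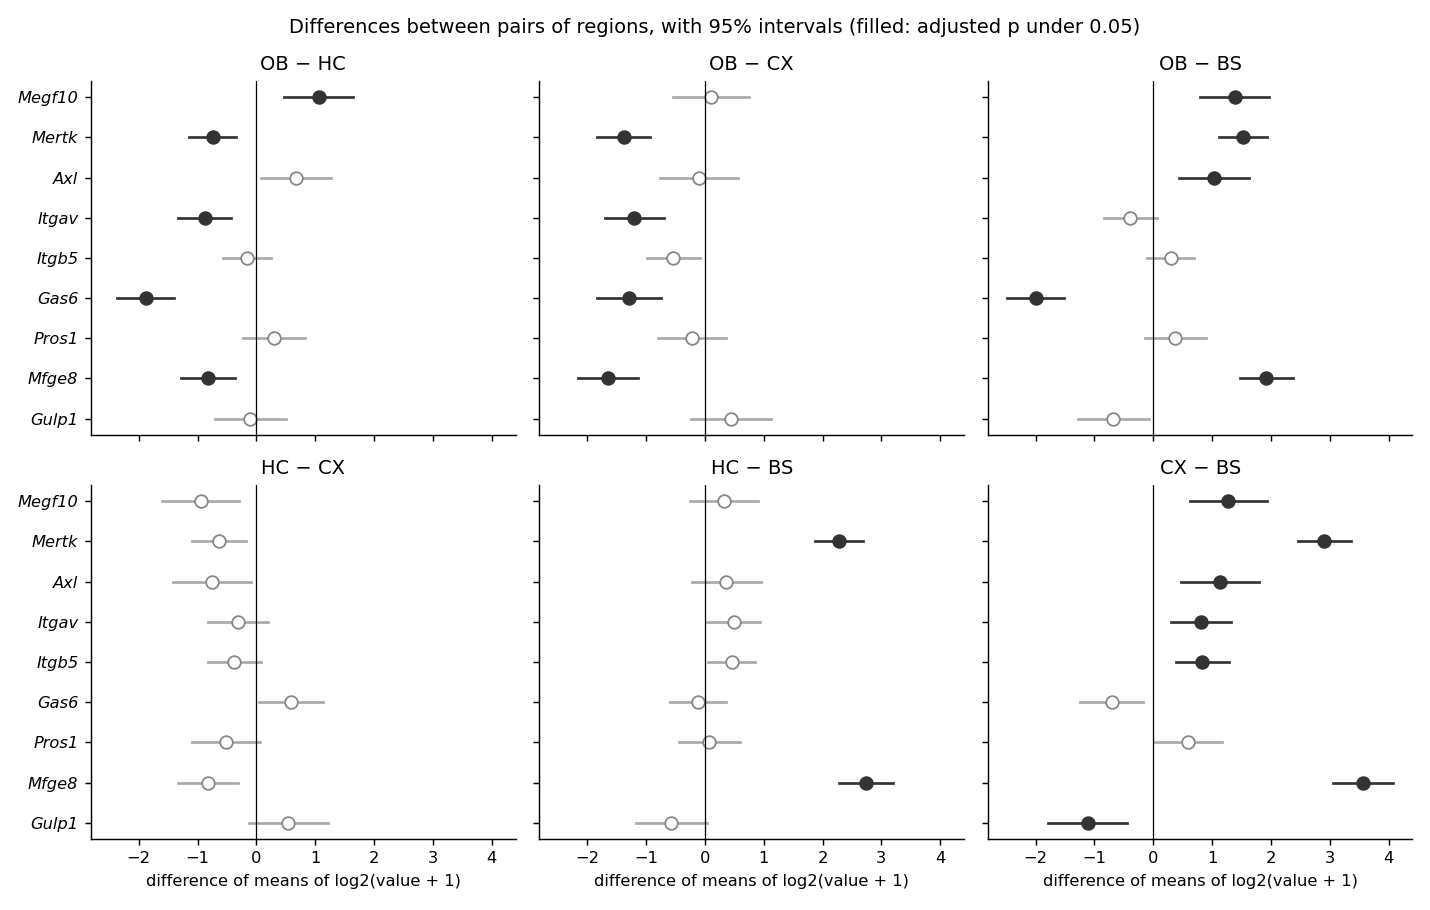
Differences of mean log2(value + 1) between pairs of regions for the 9 members other than Adgrb1 (x axis), with 95% intervals as lines; filled points had an adjusted p under 0.05. Mertk and Mfge8 lie farthest from 0 in CX to BS panel, at 2.91 and 3.57, and no point is filled in HC to CX panel.

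Set against all other samples, with the study's thresholds for region-specific genes (p under 0.01, read here as unadjusted, fold over 1.5, value over 5 in at least 2 replicates), few members were called. In the OB, Gas6 (log2 difference -1.78, adjusted p 6.63e-04) and Itgav (-0.78, unadjusted p 0.00695, adjusted p 0.0978) were lower, 2 of 9 against 8.04% of all genes in either direction and 3.89% that were lower. The Itgav call was lost when any 1 of 8 samples was left out. In the BS, Mfge8 (-2.64, adjusted p 8.45e-04) and Mertk (-2.15, adjusted p 0.00114) were lower, again 2 of 9, against 9.03% in either direction and 5.05% that were lower. At an adjusted p under 0.05, Gas6 alone passed in OB (background 4.58%), and the same 2 members passed in BS (background 5.41%). No member was called in HC (background 1.28%), where none had an unadjusted p under 0.05 with limma, edgeR or DESeq2. None was called in CX (background 2.77%), where limma gave 4 and edgeR and DESeq2 each gave 5 with an unadjusted p under 0.05. In this comparison the pooled samples of unlike regions entered the error: with a mean for each region, 3 members were called in HC, 3 in CX and 6 in BS. The share of all genes called with a mean for each region was not computed, so these counts cannot be set against a background.

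Read without a test, 4 of 9 members had both CX samples above all other samples (Mertk, Axl, Itgb5 and Mfge8, background 5.02%). Astrocyte markers did so too, at 4 of 10. The BS was below all others for Mertk and Mfge8 (background 4.19%), and the OB was below all others for Gas6 (background 3.24%).

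Within a region, the order of members by level per kilobase changed. In the OB, Adgrb1 led with 1076, before Axl with 525 and Mfge8 with 204. In the HC, Gas6 with 376, Mfge8 with 365, Mertk with 336 and Axl with 336 were close together. In the CX, Mfge8 led with 640.0, before Axl with 560 and Mertk with 520, all in normalized value per kilobase. In the BS, Gas6 led with 421, before Axl with 278 and Itgav with 220.2, while Mertk, at 70.5, and Mfge8, at 54.5, stood near the end. Pros1 was the lowest or the next to lowest member in each region, between 49.3 and 73.0.

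Of 63 further genes of engulfment written down by role, 62 were found and 56 passed the filter on low values. Among the 4 regions, 10 of these 56 differed (17.9%), close to the 16.5% of all genes. None of the 14 other receptors tested differed, Lrp1, Itgb8, Trem2 and Tyro3 among them. Of these receptors, limma gave 0 an unadjusted p under 0.05, edgeR 1 and DESeq2 2. With scaling to astrocyte markers, Itgb8 (adjusted p 0.00530) and Lrp1 (adjusted p 0.0112) passed limma's F test. Among 9 opsonins, Edil3, a secreted relative of Mfge8 with the same kind of integrin-binding motif, was the single gene that passed. Its mean values were 1019 in OB, 409.5 in HC, 286 in CX and 548 in BS, and OB minus CX was 1.83 (adjusted p 0.0318) on the log2 scale.

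Signalling genes and inhibitors made up most of the remainder. Elmo3 had its lowest values in OB, with a mean of 9.33 against 38.5 in HC and 58.1 in BS. Syk, a kinase of myeloid cells too, had a mean of 55.1 in OB and 3.91 in CX, near the floor of 3 reads. Microglial markers summed to 1883 to 4951 in OB and 2657 to 3243 in CX, and their part was not tested. Sirpa, the receptor of the brake on phagocytosis, and its ligand Cd47 were both above all others in CX and below all others in BS. Sirpa had means of 2347 in CX and 778 in BS (log2 difference 1.73, adjusted p 0.00304), and Cd47 had means of 1242 and 398 (1.64, adjusted p 3.55e-05). With scaling to astrocyte markers, Cd47 (adjusted p 0.167), Edil3 (0.0657) and Syk (0.0540) no longer passed limma's F test among the 4 regions.

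Among genes that move lipids across membranes, the flippase subunit Atp11a was lower in CX than in BS. Its means were 440.2, 588 and 316 in OB, HC and CX and 776 in BS, and CX minus BS was -1.25 ± 0.24 (SE) on the log2 scale (adjusted p 0.00380). Abca7, a lipid transporter, was lower in CX than in BS, with means of 29.2 and 110 (log2 difference -1.99, adjusted p 0.0132). Ctsb, a lysosomal protease, had means of 3148, 2302, 2328 and 1915 in OB, HC, CX and BS. Its adjusted p of 0.0454 rose above the threshold in edgeR (0.0599) and with scaling to astrocyte markers (0.280). Leaving out 1 of the 11 samples ended the call among regions in 8 cases for Ctsb, 6 for Abca7, 5 for Edil3, 4 each for Elmo3 and Syk and 1 for Atp11a, and in none for Elmo2, Cd47 and Sirpa.

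**Figure D5:**
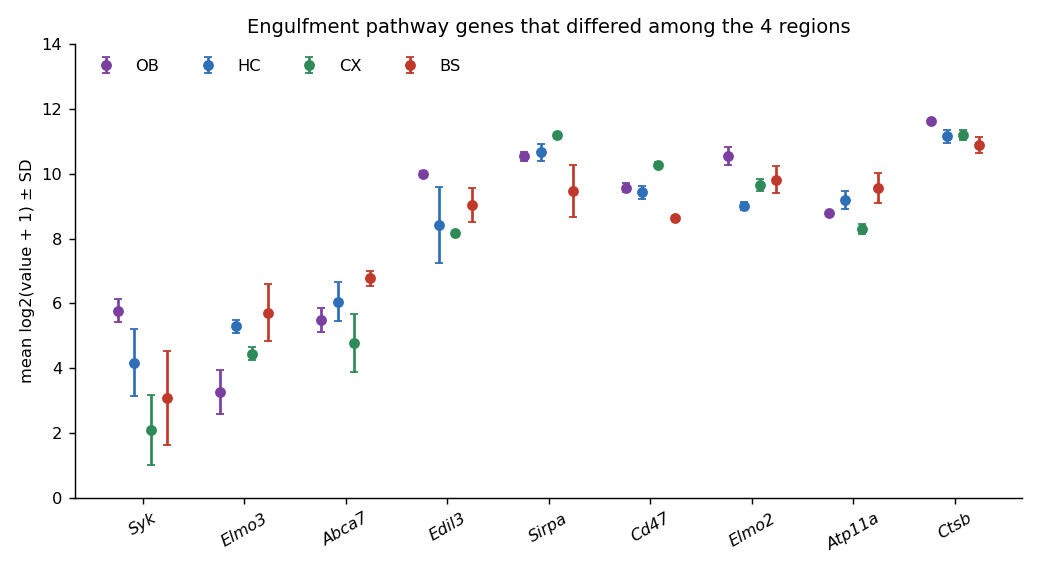
Mean log2(value + 1) (y axis) of 9 of the 10 further engulfment genes that differed among the 4 regions (x axis), with 1 SD between samples as bars, coloured by region (OB, HC and BS, n = 3; CX, n = 2). Sirpa and Cd47 are highest in CX and lowest in BS, and Elmo2 is highest in OB and lowest in HC.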

How the data were processed

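RNA-seq was measured in 11 samples of sorted Aldh1l1-eGFP-positive cells, grouped by the region in their labels. Per the labels and the study's methods, the authors checked reads with FastQC, mapped them to mm10 with STAR 2.5.0a, counted them on UCSC transcripts and used DESeq2 1.20.0. The deposited values are a normalized signal, read counts divided by 1 size factor per sample, which the study calls RPM. All non-zero values were whole multiples of 1 step per sample within 0.01 reads, so reads were recovered, and 1 read was worth between 0.367 and 2.10. Total reads, 2830746 to 14151670, limit the precision of low genes. Rn45s, a ribosomal RNA precursor, took 0.966 to 2.93% of reads in the OB and HC and 18.0 to 25.6% in the CX and BS. Of 24421 entries, 4 with damaged names were left out of tests.

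limma 3.58.1 (R 4.3.3) with its mean-variance trend was fitted to log2(value + 1) of the 13872 genes left by edgeR's filterByExpr, two-sided, with Benjamini-Hochberg adjustment over all genes. Each region was compared with the pooled others by the study's thresholds with p read as unadjusted, and an F test and 6 pairwise contrasts used a mean for each region. Fold changes on this scale understate low genes. Reads recovered in this way were tested with edgeR 4.0.16 and DESeq2 1.42.0 as alternatives, beside pseudocounts of 0.25 and 5, no filter, no trend, adjusted p, a replicate block and fits without 1 sample at a time. Scaling to astrocyte markers was chosen after seeing the data. The members and lists were chosen with earlier results of these data known. All members were named, with up to 12 further pathway genes past the F test and the 5 genes most like Adgrb1. The steps were tested on simulated data. Exon lengths are from GENCODE and promoters from RefSeq (GRCm38.p6). Summaries and plots were made in Python 3.11.15 (pandas 2.3.3, numpy 2.4.6, matplotlib 3.10.9). The values of 1 further pathway gene past the F test are not reported here.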

Additional observations from a re-analysis of the deposited data

How the results depend on the processing

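No called difference of a member changed sign under any alternative. Fitting without the mean-variance trend gave 1 in OB in place of 2, 3 among the 4 regions in place of 6, 11 of the pairs in place of 23, 1 between OB and HC, 2 between OB and CX and 2 between CX and BS, and 4 pathway genes in place of 10. With a mean for each region, 3 members were called in HC, 3 in CX and 6 in BS. With adjusted p-values 1 was called in OB, DESeq2 called 1 between HC and CX, and scaling to astrocyte markers left 3 between CX and BS. Shares of all genes were computed for the main comparisons and the adjusted p-values alone, and the causes were not tested.

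Deviations of same-numbered samples correlated between -0.16 and 0.25 over 15 pairs of samples (median 0.023), of which 3 exceeded 0.1. Those of unlike-numbered samples correlated between -0.224 and 0.183 over 30 pairs (median -0.003), of which 5 exceeded 0.1. The highest values were those of OB and HC replicates 3 (0.25) and OB and HC replicates 1 (0.195). These values do not settle whether equal replicate numbers mean paired samples. With the replicate block, 1 member was called in OB in place of 2, since Itgav reached a p of 0.0127, and Gulp1 between CX and BS had an adjusted p of 0.0502; it ended no other call of a member.

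Leaving out each sample gave 1 to 2 members in OB, 0 in HC each time, 0 to 2 in CX (2 without HC replicate 3) and 2 to 5 in BS (5 without HC replicate 1 and 4 without BS replicate 2). It gave 5 to 7 members and 5 to 16 pathway genes among the 4 regions (16 without BS replicate 2, 5 without OB replicate 1 or 3, 6 without CX replicate 2), and 16 to 26 pairs. By pair it gave 1 to 5 for OB and HC (1 without OB replicate 1, 2 without OB replicate 2, OB replicate 3 or HC replicate 3, 3 without HC replicate 1), 2 to 4 for OB and CX (2 without either CX sample), 4 to 6 for OB and BS, 0 for HC and CX, 2 to 4 for HC and BS (4 without BS replicate 2) and 2 to 8 for CX and BS (2 without either CX sample, 3 without BS replicate 1 or 3). The log2 difference of Adgrb1 between the OB and the other samples was 3.27 to 3.53. Without a CX sample, the remaining one was assumed to vary like the other groups. The F tests of Mertk, Mfge8 and Gas6 passed under every alternative run. Among other settings for single genes, 1353 results stayed called or stayed uncalled, 50 lost a call and 19 gained one. Uncalled differences could change sign. For Itgav in BS against the other samples, the log2 difference was -0.24, and 0.26 with scaling to astrocyte markers. With 2 or 3 samples per region, the depth limits the low genes Elmo3 and Syk most.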
